A study of Mus musculus with 4 samples.

Results

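miR-137, miR-138 and miR-218 are neuronal miRNAs that act at synapses and in growing neurites, and 5 of their mature strands are described here as they were found in the RISC of mouse cortex and hippocampus at 2 ages. The strands are mmu-miR-137-3p, mmu-miR-138-5p, mmu-miR-138-1-3p, mmu-miR-138-2-3p and mmu-miR-218-5p, written below without the species prefix. They were taken by name from the miRNA column of the deposited table, 5 of its 1029 miRNA names, and comprise 1093 of its 85704 sequences. The 4 libraries came from BL6 mice (male C57BL/6 J, per the study's methods), with 2 libraries at 2 months of age (young) and 2 at 18 months (old). The labels name no transgene and no treatment, and each library was made from cortex pooled with hippocampus, 250 mg in all. Ago proteins were pulled down with a GW182 peptide and the small RNAs bound to them were sequenced (Ago-RP-Seq), so a read stands for a short RNA held in the RISC. Values are CPM, that is, reads scaled to a common library total. The labels do not say whether 2 libraries of an age came from separate mice, so each p-value measures only the spread between these libraries.

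A miRNA guides the RISC to mRNAs by base pairing of its seed, the bases from position 2 to 7 or 8 counted from the 5′ end, and the paired mRNA is silenced. Where a strand is cut 1 base further along, every seed position moves with it, so the reads of 1 miRNA can carry more than 1 seed. miR-137 is known for repressing presynaptic proteins, and its gene lies in a locus tied to schizophrenia risk. miR-138 is enriched at dendrites, where it limits the size of spines through the depalmitoylating enzyme Lypla1. miR-218 is made from introns of the axon guidance genes Slit2 and Slit3 and is known for its abundance in motor neurons.

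The RefSeq mature sequences of the 5 strands are printed 5′ to 3′ to show that no seed is shared between them. Capitals mark the seed, bases 2 to 8.
miR-137-3p: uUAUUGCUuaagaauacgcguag
miR-138-5p: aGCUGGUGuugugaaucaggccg
miR-138-1-3p: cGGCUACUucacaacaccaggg
miR-138-2-3p: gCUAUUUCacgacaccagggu
miR-218-5p: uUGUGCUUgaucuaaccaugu

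On GRCm38.p6 all 5 hairpins lie on the plus strand. miR-137-3p is encoded at chr3:118433901-118433923, in an exon of the noncoding transcript Gm26871. miR-138-5p is encoded at 2 sites, chr9:122682898-122682920 in Mir138-1, within an exon of the transcribed pseudogene Gm47135, and chr8:94324312-94324334 in Mir138-2, within an exon of the lincRNA C78859. miR-138-1-3p lies at chr9:122682936-122682957 and miR-138-2-3p at chr8:94324359-94324379. miR-218-5p is encoded at chr5:48223966-48223986 in Mir218-1, within an intron of Slit2, and at chr11:35616840-35616860 in Mir218-2, within an intron of Slit3.

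The reads behind the CPM scale ranged from 9067007 to 11388999 per library, and 3 reads were worth 0.263 to 0.331 CPM. Of the marker lists, the 3 neuronal miRNAs summed to between 169186 and 195706 CPM per library. The 8 miRNAs of epithelium and olfactory bulb (the miR-200 and miR-183 families) summed to 33240 and 56594 CPM in young and to 70427 and 75060 CPM in old libraries. Of these, 7 of 8 were higher at an unadjusted p under 0.05 by limma (adjusted p from 0.249 to 0.282), where 4.17% of the 456 tested miRNAs were higher. Members of the same family need not vary independently. miR-126a-3p, an endothelial miRNA, was at 9242 and 8854 CPM in young and 2557 and 6489 CPM in old libraries. It was lower at that threshold (limma, adjusted p = 0.266), where 12.1% of the tested miRNAs were lower. miR-126a-5p, the other strand on the endothelial list, overlapped, at 3000 and 2618 CPM in young and 2865 and 2501 CPM in old libraries. No tested miRNA of the lists for neurons, oligodendrocytes, smooth muscle and pericytes, red blood cells, immune cells or choroid plexus passed that threshold. The part of these differences in the results below was not tested. In whole tissue, fewer cells of a type and less RNA per cell cannot be told apart.

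Together the 5 strands held 2.63% and 2.28% of all reads in the young libraries and 1.78% and 1.92% in old libraries. miR-138-5p was the most abundant of them and ranked 24 among all miRNA names by mean CPM, followed by miR-218-5p at rank 31, miR-137-3p at rank 89, miR-138-1-3p at rank 160 and miR-138-2-3p at rank 214. The ranges over libraries of miR-138-5p (9042 to 13776 CPM) and miR-218-5p (6837 to 12514 CPM) overlapped, as did those of no other neighbours in this order.

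**Figure D1:**
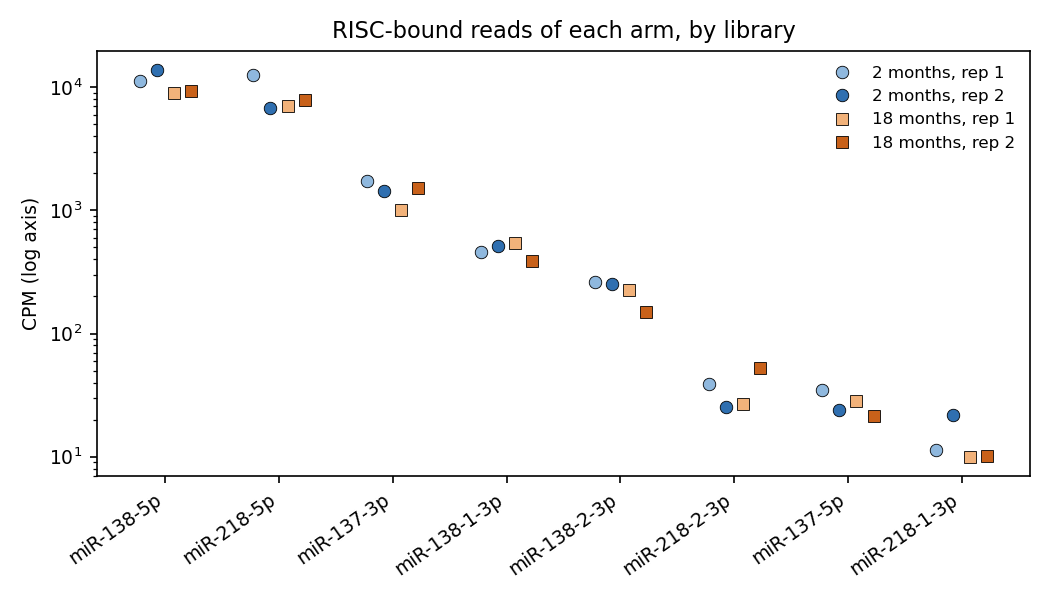
CPM on a log axis of the 5 strands and of the 3 opposite strands of the same hairpins, 1 point per library (circles in young libraries, squares at 18 months). miR-138-5p and miR-218-5p sit at or above 6837 CPM in every library, and the strands opposite miR-137-3p and miR-218-5p stay at or below 52.2 CPM.

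The strand that enters the RISC differed between the hairpins. For miR-137 the 3p strand made up 98.0% and 98.3% of the reads of both arms in young and 97.3% and 98.6% in old libraries. miR-137-5p stood at 34.6 and 24.0 CPM in young and at 28.1 and 21.5 CPM in old libraries. For miR-218 the 3p strands made up only 0.399% and 0.684% in young and 0.522% and 0.785% in old libraries. The 3p strands of miR-138 took a larger part, 6.01% and 5.30% in young and 7.79% and 5.48% in old libraries. None of these shares separated the ages.

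The first comparison asked whether the strands differed in the RISC between 2 and 18 months. Of the 5, 0 passed an unadjusted p under 0.05 by limma on log2(CPM + 1), where 16.2% of the 456 tested miRNAs did in either direction and 12.1% were lower in the old libraries. After adjustment 0.219% of the tested miRNAs passed. edgeR and DESeq2 also called 0 of the 5, against 13.6% and 15.1% of the tested miRNAs. All 5 log2 changes were below 0, with a median of -0.35, against a median of -0.22 over all tested miRNAs, of which 68.4% were below 0. With median of ratios scaling the median was -0.14 for the 5 strands and -0.01 for all tested miRNAs.

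miR-138-5p was at 11307 and 13776 CPM in young and at 9042 and 9296 CPM in old libraries. Both old libraries lay below both young ones, a separation that 41.4% of the tested miRNAs showed in this direction. The means were 12542 ± 1746 and 9169 ± 180 CPM (SD, n = 2 each), and the log2 change was -0.44 ± 0.21 (SE), with a 95% interval from -0.96 to 0.07 (limma, adjusted p = 0.358). It was -0.23 with median of ratios scaling, -0.23 with edgeR and -0.24 with DESeq2.

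miR-138-2-3p, from the opposite arm of Mir138-2, was at 263 and 254 CPM in young and at 225 and 150 CPM in old libraries. It was the other strand whose ages did not overlap. Its log2 change was -0.49 ± 0.26, with an interval from -1.12 to 0.13 (limma, adjusted p = 0.393). Without the first 18-month library it was -0.78 and passed the unadjusted threshold (limma, adjusted p = 0.353). With all 4 libraries it was -0.28 with median of ratios scaling, -0.24 with edgeR and -0.25 with DESeq2.

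miR-138-1-3p, from the opposite arm of Mir138-1, was at 460 and 518 CPM in young and at 539 and 389 CPM in old libraries. The 18-month libraries held both its highest and its lowest value. The log2 change was -0.09 ± 0.24, with an interval from -0.68 to 0.49 (limma, adjusted p = 0.865), and it was 0.12 with median of ratios scaling, 0.15 with edgeR and 0.14 with DESeq2.

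miR-137-3p was at 1734 and 1427 CPM in young and at 1012 and 1507 CPM in old libraries. The second 18-month library lay between the 2-month libraries. Its log2 change was -0.35 ± 0.27, with an interval from -0.99 to 0.30 (limma, adjusted p = 0.499). It was -0.14 with median of ratios scaling, -0.11 with edgeR and -0.12 with DESeq2.

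miR-218-5p was at 12514 and 6837 CPM in young and at 7003 and 7861 CPM in old libraries. The first 2-month library stood above the other 3, and the second was the lowest of all. Its log2 change was -0.32 ± 0.32, with an interval from -1.09 to 0.45 (limma, adjusted p = 0.586). It was 0.12 without the first 2-month library and -0.75 without the second, which passed the unadjusted threshold (limma, adjusted p = 0.293). With all 4 libraries it was -0.11 with median of ratios scaling, -0.15 with edgeR and -0.16 with DESeq2.

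**Figure D2:**
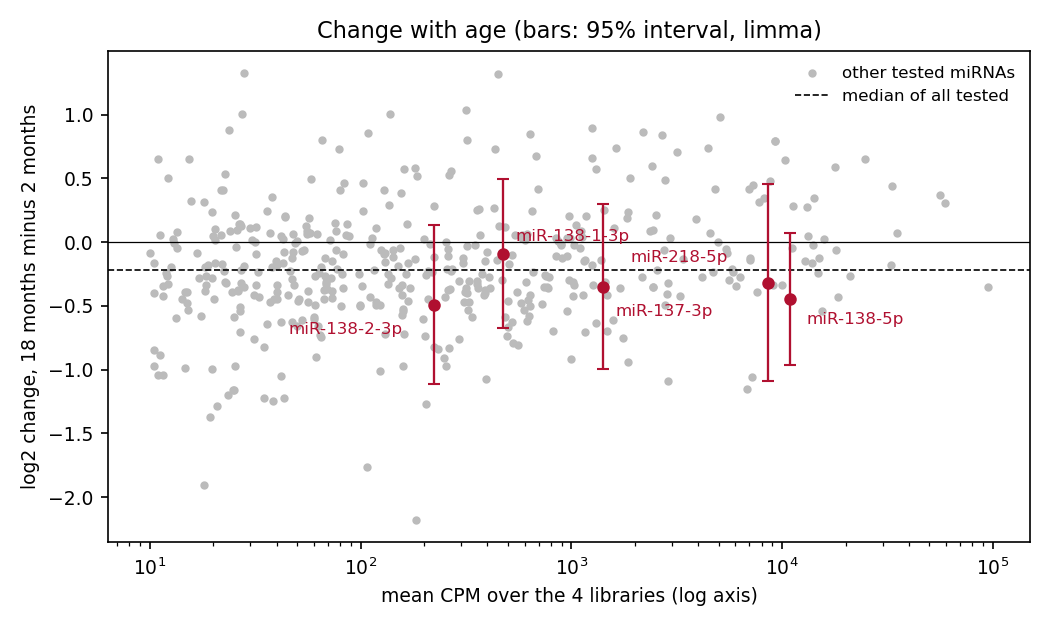
Log2 change from 2 to 18 months against mean CPM (log axis) for the 456 tested miRNAs (grey) and the 5 strands (red, with 95% intervals from limma); the dashed line is the median of all tested, -0.22. The 5 red intervals all include 0.

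The other strands of these hairpins did not pass the test either. miR-218-1-3p was at 11.3 and 21.6 CPM in young and at 10.02 and 10.04 CPM in old libraries (log2 change -0.60, limma adjusted p = 0.439). miR-218-2-3p was at 38.8 and 25.5 CPM in young and at 26.8 and 52.2 CPM in old libraries (log2 change 0.24, limma adjusted p = 0.758). The log2 change of miR-137-5p was -0.22 (limma, adjusted p = 0.716).

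Of 18 other miRNAs known from synapses and neuronal plasticity, 0 were higher and 0 lower at an unadjusted p under 0.05 by limma, and their median log2 change was -0.15. With median of ratios scaling 1 of 18 was higher, against 8.55% of the tested miRNAs: miR-29a-3p, which is known for its increase in the maturing brain. It was at 29860 and 26219 CPM in young and at 32580 and 44183 CPM in old libraries, and its rescaled log2 change was 0.65 (limma, adjusted p = 0.271). The list was put together with results of these libraries known.

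The tested miRNAs closest in profile to each strand were found by the Euclidean distance between their 4 centred log2 values, over 451 other miRNAs. miR-15b-5p was nearest to miR-137-3p (distance 0.082), miR-376b-5p to miR-138-5p (0.094), miR-532-3p to miR-138-1-3p (0.106), miR-760-3p to miR-138-2-3p (0.061) and miR-1298-3p to miR-218-5p (0.112). Next came miR-135b-5p and miR-674-3p for miR-137-3p, miR-541-5p and miR-543-3p for miR-138-5p, miR-151-3p and miR-181a-2-3p for miR-138-1-3p, miR-3102-3p and miR-342-3p for miR-138-2-3p, and miR-1264-3p and miR-100-5p for miR-218-5p. miR-1298-3p was a rare miRNA, at 17.7 and 9.57 CPM in young and at 8.79 and 10.3 CPM in old libraries. With 4 libraries such a distance describes the libraries only.

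miR-137-3p was the strand with the most varied 5′ end. It carried 3 seeds above 1% of its reads, and the most abundant read with each is printed to show how the seed moves, with bases 2 to 8 in capitals.
annotated start: uUAUUGCUuaagaauacgcgu
1 base later: uAUUGCUUaagaauacgcguag
2 bases later: aUUGCUUAagaauacgcguagu

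The 6mer seed UAUUGC of the annotated start held 66.8% and 65.0% of the miR-137-3p reads in young and 73.8% and 71.5% in old libraries. The seed AUUGCU, 1 base later, held 20.7% and 23.4% in young and 17.8% and 19.1% in old libraries. The seed UUGCUU, 2 bases later, held 10.8% and 10.2% in young and 7.20% and 7.94% in old libraries. For each of the 3 seeds the ages did not overlap, with the annotated start higher and both later starts lower at 18 months.

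The share of UAUUGC differed by 6.71 percentage points between the ages (exact permutation test, two-sided, p = 0.333, the smallest that 2 libraries against 2 allow). Over the 456 tested miRNAs the median absolute difference in the share of the leading seed was 0.663 points, 22 had a larger one than miR-137-3p, and the ages did not overlap, with 18 months higher, for 19.1%. The mean share of the leading seed was 69.3% for miR-137-3p. Only 56 of the 456 had a lower one, so most had less room to rise. A limma fit of the ratio of the leading to the other seeds, added after seeing the data, gave a log2 change of 0.46 ± 0.16 for miR-137-3p (adjusted p = 0.739 over 385 miRNAs), past an unadjusted p under 0.05, as were 5.97% of those miRNAs. In CPM, AUUGCU was at 360 and 335 in young and at 180 and 288 in old libraries, and UUGCUU at 187 and 146 in young and at 72.9 and 120 in old libraries, while UAUUGC overlapped, at 1159 and 927 in young and 747 and 1077 in old libraries.

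The authors give each seed a viability score, the survival of cells given a small duplex with that seed, averaged over 3 mouse lines and in percent of the control, so that a low score marks a toxic seed. UAUUGC scored 51.3, AUUGCU 56.3 and UUGCUU 87.0. Weighted by reads, miR-137-3p had a mean score of 56.9 and 56.7 in young and of 55.3 and 55.7 in old libraries. miR-137-3p accounted for 95.5% to 97.1% of all reads that carried any of the 3 seeds. Among miRNA names, the next carriers of UAUUGC, miR-92b-3p and miR-32-5p, reached 3.01 and 2.08 CPM on average. Reads without a miRNA name made up most of the remainder and were not ranked.

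The 3′ ends of miR-137-3p were spread differently for each 5′ start. Among reads with the annotated start that matched the hairpin exactly, 47.1% and 38.7% in young and 56.6% and 57.8% in old libraries stopped 2 bases before the annotated 3′ end. A further 33.2% and 42.0% in young and 26.4% and 31.8% in old libraries stopped at the annotated end, which was the more frequent of both ends in the second young library. Among reads that began 2 bases later, 74.9% and 68.6% in young and 68.4% and 70.2% in old libraries ran 1 base past it. Reads that began 1 base later mostly stopped at the annotated end (44.5% and 58.1% in young libraries, 48.0% and 55.4% in old libraries) or 1 base past it.

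By length, 21 bases was the most frequent form of miR-137-3p in the old libraries and 23 bases in the young ones. The 21-base reads made up 33.3% and 28.2% in young and 42.5% and 41.2% in old libraries, a difference of 11.1 points (exact permutation test, p = 0.333). Of the 456 tested miRNAs, 21 had a larger difference in the share of their most frequent length, the median was 3.02 points, and for 14% the ages did not overlap with 18 months higher. Among all miRNA names outside the 5, the 21-base share was 28.8% and 28.4% in young and 29.7% and 29.5% in old libraries, also without overlap, with a difference of 0.985 points.

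**Figure D3:**
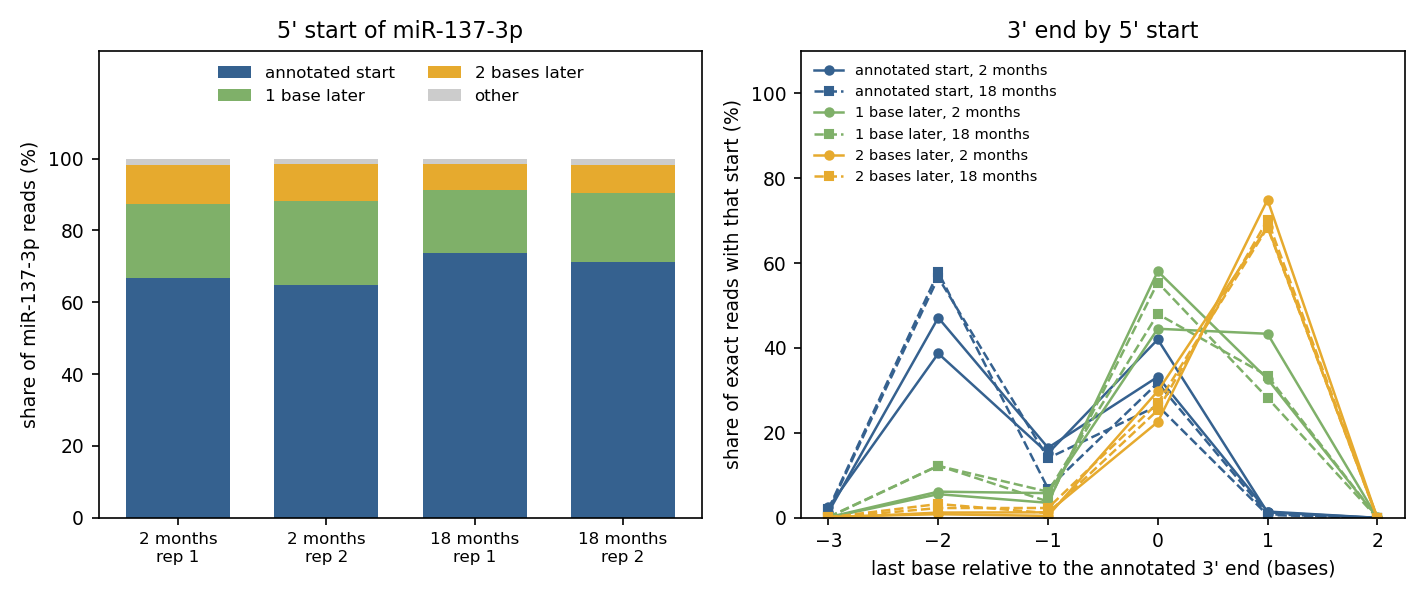
Left, share (%) of miR-137-3p reads by 5′ start in each library; right, share (%) of exactly matching reads with each start by the position of the last base relative to the annotated 3′ end (solid 2 months, dashed 18 months, 1 line per library). The annotated start holds 66.7% and 64.8% in young and 73.6% and 71.3% in old libraries, and an end 2 bases short is frequent with the annotated start and rare with the start 2 bases later.

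The reads of miR-138-1-3p began 2 bases after the RefSeq start in most cases. Its most abundant read is printed beside that of its paralog, with the bases that differ between them in capitals.
miR-138-1-3p: gcuaCuucacAacaccagggC
miR-138-2-3p: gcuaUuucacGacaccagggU

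Once they begin at the same base, the paralogs differ at 3 positions, of which 1 lies in the seed. The seed CUACUU (score 80) held 95.9% and 97.1% of the miR-138-1-3p reads in young and 96.4% and 97.0% in old libraries. The seed of the RefSeq start, GGCUAC (score 39.1), held 2.34% and 1.99% in young and 1.89% and 1.76% in old libraries. That seed was also carried by miR-187-5p, and miR-138-1-3p made up only 43.3% to 53.9% of the reads that held it.

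miR-138-2-3p began at its RefSeq start in most reads, with the seed CUAUUU (score 74.4) at 96.4% and 98.0% in young and 97.8% and 96.5% in old libraries. Both 3p strands often carried bases at the 3′ end that the hairpin does not encode. Such reads made up 33.9% and 26.3% of miR-138-1-3p in young and 29.5% and 34.1% in old libraries, and 25.9% and 27.4% of miR-138-2-3p in young and 26.7% and 29.8% in old libraries. For the other 3 strands they stayed between 6.19% and 14.7% of the reads.

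miR-138-5p had the lowest score among the 5 leading seeds. GCUGGU (score 34.5) held 96.9% and 98.3% of its reads in young and 97.2% and 97.4% in old libraries, and CUGGUG (score 75.1), 1 base later, held 0.883% to 1.49%. miR-218-5p was the most uniform, with UGUGCU (score 72.2) at 99.4% or 99.5% in every library. Over the 5 strands together the mean score by reads was 55.3 and 48.9 in young and 52.6 and 53.0 in old libraries, and over all sequences of the table it was 57.7 and 57.9 in young and 58.1 and 58.4 in old libraries.

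The same miR-138-5p is cut from 2 hairpins, and so is miR-218-5p, and only reads that run past the shared stretch can differ. The first 30 bases from the start of each are printed, with the bases that differ between the hairpins in capitals.
miR-138-5p in Mir138-1: agcugguguugugaaucaggccgUUgCCAa
miR-138-5p in Mir138-2: agcugguguugugaaucaggccgACgAGCa
miR-218-5p in Mir218-1: uugugcuugaucuaaccaugugCuUgCGAg
miR-218-5p in Mir218-2: uugugcuugaucuaaccaugugGuGgAACg

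Most exact reads of miR-138-5p fitted both hairpins, 78.0% and 83.6% in young and 86.2% and 80.6% in old libraries. Of the reads that fitted 1 hairpin only, those that fitted Mir138-1 made up 64.0% and 76.1% in young and 62.2% and 74.8% in old libraries. Those that fitted Mir138-2 ended almost wholly at the first differing base, an A, which cannot be told apart from an A added to a shared end. Likewise, most of those that fitted Mir138-1 ended in U or UU, which cannot be told apart from added U. Reads with only A added made up 4.59% to 5.30% of miR-138-5p elsewhere, and reads with only U added 2.21% to 3.70%. Of the reads with at least 2 bases past the shared stretch, 99.4% to 99.9% fitted Mir138-1, with the same limit.

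The 3p strands, which differ in sequence, gave Mir138-1 a share of 63.7% and 67.1% in young and 70.5% and 72.2% in old libraries. The ages did not overlap, and the difference was 6.02 points (exact permutation test, p = 0.333, the smallest that 2 libraries against 2 allow). No background was computed for shares between paralogs. The share of the leading seed, a different measure, was higher at 18 months without overlap for 19.1% of the 456 tested miRNAs. The paralog share rests on the same reads as the levels of these 3p strands given above.

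For miR-218-5p the reads of 1 hairpin fitted mainly Mir218-2, in the Slit3 intron. Those that fitted Mir218-1, in the Slit2 intron, made up 2.59% and 2.32% in young and 3.33% and 3.28% in old libraries. With at least 2 bases past the shared stretch its share was 5.18% and 6.43% in young and 10.1% and 11.7% in old libraries, from 36 to 43 reads per library. The 95% Wilson intervals ran from 3.84% to 6.96% and 4.68% to 8.77% in the young libraries, and from 7.56% to 13.3% and 8.84% to 15.5% in the old ones. Such intervals cover counting error and not the spread between libraries. For both Mir218-1 shares the exact permutation test gave p = 0.333, the smallest that 2 libraries against 2 allow, and no background was computed. In CPM, the Mir218-1 reads with at least 2 bases past the shared stretch were at 3.91 and 3.16 in young and at 4.07 and 4.74 in old libraries. The Mir218-2 reads of this kind were at 71.5 and 46.0 in young and at 36.3 and 35.6 in old libraries. Exact reads that fitted Mir218-1 only were 0.198% to 0.262% of all exact reads, and reads with only C added, the first differing base of Mir218-1, were 0.120% to 0.165% of miR-218-5p elsewhere, so added bases cannot be told apart here either. The 3p strands gave Mir218-1 a larger share, 22.6% and 45.9% in young and 27.3% and 16.1% in old libraries.

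**Figure D4:**
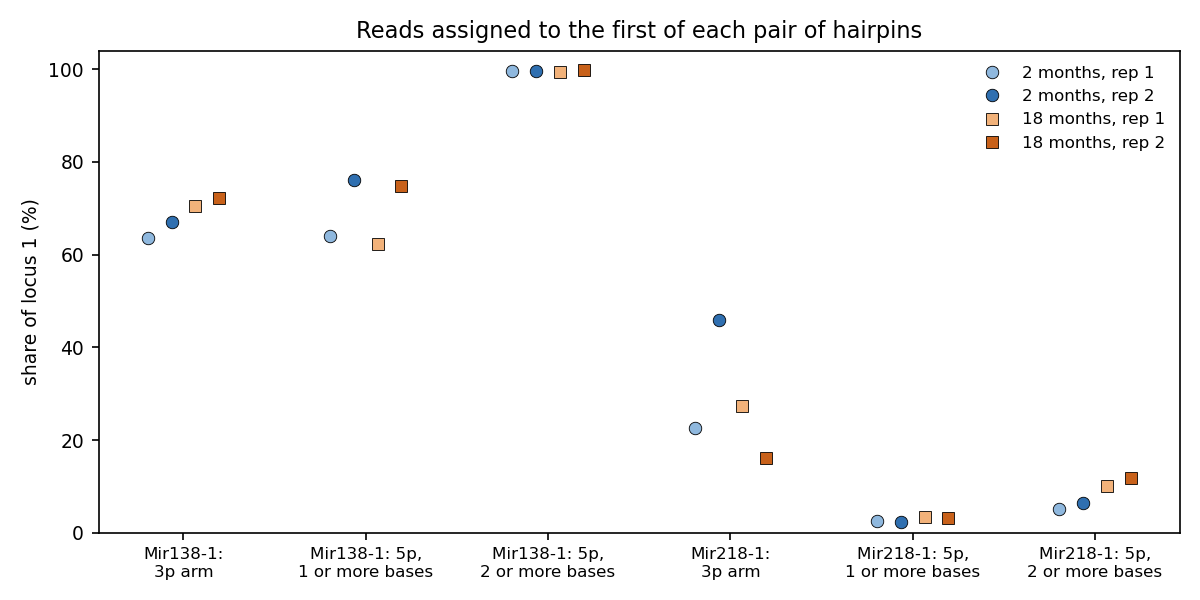
Share (%) of reads that fitted the first hairpin of each pair, by 3p strand and by 5p reads with at least 1 or at least 2 bases past the shared stretch, 1 point per library (circles 2 months, squares 18 months). The Mir138-1 share lies between 62.2% and 99.9%, where 5p reads may also end in added bases, and the Mir218-1 share of 5p reads stays at or below 11.7%.

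The difference between the 2-month libraries in miR-218-5p lay mainly in 1 form. The 21-base RefSeq form, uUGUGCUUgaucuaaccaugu, was at 8512 and 3580 CPM in young and at 4243 and 5068 CPM in old libraries. All other forms together were at 4002 and 3257 CPM in young and at 2760 and 2792 CPM in old libraries. The first 2-month library was 2.38 times the second in the 21-base form and 1.23 times in the others. In a comparison made after seeing this, the leading sequence of 28 other miRNAs of the 456 was at least as far apart between these 2 libraries, and the median ratio of the larger to the smaller was 1.24. Without the 21-base form the log2 change with age was -0.38.

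**Figure D5:**
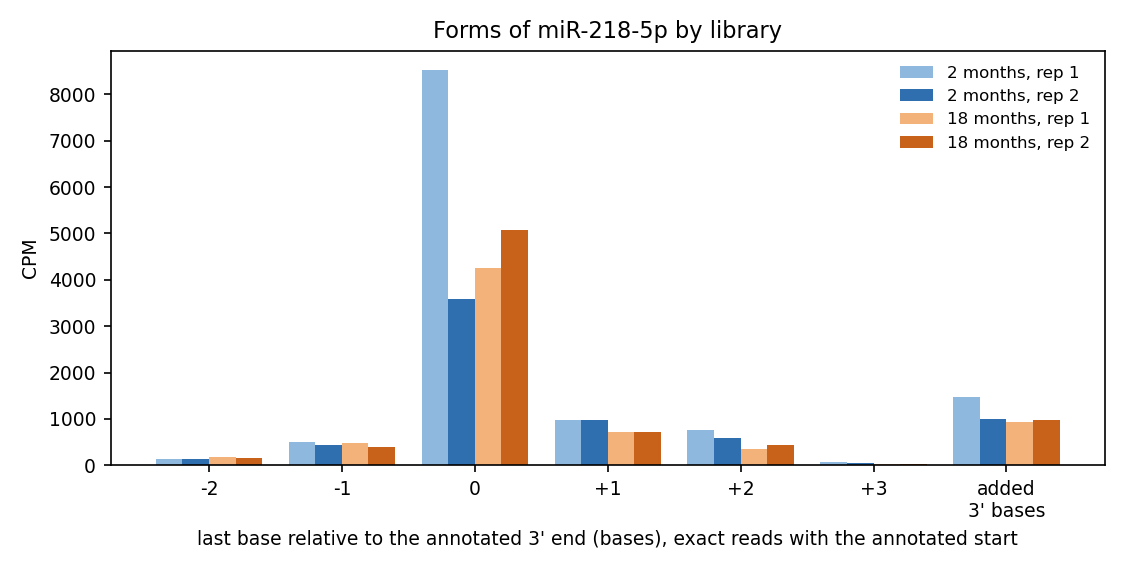
CPM of miR-218-5p reads by the position of the last base relative to the annotated 3′ end, and of reads with added 3′ bases, as bars for each library. At position 0 the first 2-month library reaches 8512 CPM and the second 3580 CPM, while at position +1 they stand at 984 and 967 CPM.

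The last comparison took the sequences 1 by 1. Of the 246 sequences of the 5 strands with a mean of at least 1 CPM, 20 passed an unadjusted p under 0.05 by limma, all 20 lower and 0 higher in the old libraries. Of the 14287 tested sequences 10.1% passed, 4.23% lower and 5.87% higher. After adjustment 0 of the 246 passed (limma, smallest adjusted p = 0.268), where 0.042% of all tested did. edgeR gave 20 of the 246 (19 lower, 1 higher) and DESeq2 13 (12 lower, 1 higher) at the unadjusted threshold, against 9.52% and 6.59% of all tested. The direction rested in part on single libraries: it was 16 lower and 4 higher without the first young library, 22 and 0 without the second, 10 and 6 without the first old library, and 29 and 3 without the second. The 20 comprised 7 sequences of miR-137-3p, 7 of miR-138-5p, 4 of miR-218-5p and 1 of each 3p strand of miR-138, and sequences of 1 strand are cut from the same precursors and are not independent of each other. Of the 20, 15 ended past the RefSeq 3′ end with added bases included, against 118 of the 246 tested. That count was made after seeing them. Some of the 20 met the filter of 1 CPM only through the young libraries. These averaged 1.92 to 3.23 CPM in young and 0.46 to 0.98 CPM in old libraries, so they could hardly have been called higher. Added 3′ bases were on 12 of the 20, and the other 8 matched a hairpin exactly.

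The more abundant of the 8 exact ones are printed with the seed in capitals, to show which of these forms were lower at the unadjusted threshold.
miR-218-5p, 2 bases past the end: uUGUGCUUgaucuaaccaugugg
miR-137-3p, 1 base short: uUAUUGCUuaagaauacgcgua
miR-137-3p, 1 base later and 1 past the end: uAUUGCUUaagaauacgcguagu
miR-137-3p, 2 bases later and 1 past the end: aUUGCUUAagaauacgcguagu

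The form of miR-218-5p that ends in 2 further bases of Mir218-2 was at 740 and 589 CPM in young and at 345 and 436 CPM in old libraries (log2 change -0.76, limma adjusted p = 0.432). The form of miR-137-3p that stops 1 base short was at 175 and 132 CPM in young and at 97.7 and 67.8 CPM in old libraries (log2 change -0.89, limma adjusted p = 0.412). The form of miR-137-3p that begins 1 base later and ends 1 past the annotated end was at 140 and 103 CPM in young and at 54.0 and 74.8 CPM in old libraries (log2 change -0.91, limma adjusted p = 0.404). The one that begins 2 bases later was at 127 and 92.4 CPM in young and at 44.7 and 76.0 CPM in old libraries (log2 change -0.88, limma adjusted p = 0.451). In each of these 4 forms, which were printed because they passed the threshold, both old libraries lay below both young ones. Of the 246 tested sequences of the 5 strands, 74 were lower and 16 higher without overlap. The same shares over all tested sequences were not computed, so these counts do not set the 5 strands apart. The 21-base form of miR-137-3p overlapped and was at 500 and 336 CPM in young and at 394 and 569 CPM in old libraries (log2 change 0.21, limma adjusted p = 0.860).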

How the data were processed

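Ago-bound short RNAs of cortex and hippocampus were analysed in 4 libraries, 2 at 2 months and 2 at 18 months, grouped by the age in the sample labels. The authors trimmed the reads (Trim Galore, per the submitters' processing notes), dropped rare reads, searched the others by BLAST against mouse small RNA lists and deposited CPM for each sequence, with every library scaled to 1 common total. Tool versions and the genome build are not given in the sources used here. The deposited viability score of a seed is the authors' mean over 3 mouse cell lines. The number of unassigned columns of sample values was 0. Whole reads were recovered from the CPM (100% of the values within 0.05 reads of a whole number), and 95% Wilson intervals and the floor of 3 reads cover counting error only.

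CPM were summed by miRNA name and fitted by limma 3.58.1 in R 4.3.3 with an intensity trend on log2(CPM + 1) and age as its single term (two-sided), on names averaging 10 CPM or more and on sequences averaging 1 CPM or more. A fold change on this scale understates the change of low values. P-values were adjusted by Benjamini-Hochberg over all items tested. Exact permutation tests compared shares. Reads were placed on the RefSeq hairpins (GRCm38.p6), allowing up to 4 added bases at the 3′ end; a mismatch in the last 4 bases counts as added. Host genes came from the GENCODE annotation. In simulated counts of 456 miRNAs, limma found 100% of those changed by a fold of 4 and 6.25% of those left unchanged. For 14287 sequences the first share was 90.5%. The simulation used a common dispersion and held no smaller changes, so it gives no power for changes of the size seen in the strands. The alternatives were edgeR 4.0.16 and DESeq2 1.42.0 on recovered reads, other pseudocounts, filters and scaling, a replicate block, and each library left out in turn. Tables and plots were made in Python 3.11.15 (matplotlib 3.10.9, scipy 1.17.1, pandas 2.3.3, numpy 2.4.6).

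The strands and lists were chosen with earlier results of these data known. Named with values were the 5 strands, the other arms of their hairpins, seeds with at least 1% of a strand's reads and their other carriers, listed synaptic miRNAs past an unadjusted p of 0.05, marker lists, and the 3 nearest profiles of each strand. Single sequences were named after their values were seen.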

Additional observations from a re-analysis of the deposited data

Results flagged for a closer look

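Sequences that the table assigns to these hairpins without a mature miRNA name were outside every comparison, and each group was above the level of 3 reads. They averaged 49.7 CPM over the 4 libraries for miR-137 (94 sequences), 182 CPM for miR-138 (348 sequences) and 105 CPM for miR-218 (179 sequences). By library, those of miR-218 were at 152 and 79.6 CPM at 2 months and at 90.9 and 97.8 CPM at 18 months. Those of miR-138 were at 186 and 222 CPM at 2 months and at 159 and 161 CPM at 18 months, and those of miR-137 at 57.2 and 46.6 CPM at 2 months and at 39.7 and 55.1 CPM at 18 months.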

How the results depend on the processing

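Of the values recomputed under the alternatives, 134 kept their direction and side of the threshold, 20 changed sign, 6 counts moved by over 1.5 times and 3 passed an unadjusted p of 0.05 only there. The cause was not tested. Share differences carried no p-value, so only their direction could change. Among the 3 was the added ratio fit of miR-137-3p, a different measure from the share it was set against. The log2 change of miR-138-1-3p became 0.15 with edgeR, 0.14 with DESeq2 and 0.12 after median of ratios scaling. With each library left out in turn, log2 changes ran from -0.64 to -0.06 for miR-137-3p, -0.59 to -0.30 for miR-138-5p, -0.33 to 0.14 for miR-138-1-3p, -0.78 to -0.20 for miR-138-2-3p and -0.75 to 0.12 for miR-218-5p, and 0 to 1 strands passed an unadjusted p of 0.05. Sequences of the 5 strands past it ran from 16 (10 lower, 6 higher, without the first 18-month library) to 32 (29 lower, 3 higher, without the second), and were 43 of 1093 with no filter (38 lower, 5 higher), 7 of 70 above 10 CPM (7 lower) and 13 with DESeq2 (12 lower, 1 higher).

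Left out in turn, the libraries gave leading-seed differences of 5.56 to 7.87 points for miR-137-3p, -0.96 to 0.38 for miR-138-5p, -0.41 to 0.77 for miR-138-1-3p, -0.81 to 0.75 for miR-138-2-3p and -0.00193 to 0.0569 for miR-218-5p. RefSeq-length shares ran from -7.49 to -4.35 points for miR-137-3p, -6.19 to 2.52 for miR-138-5p, -0.65 to 4.25 for miR-138-1-3p, -1.04 to -0.23 for miR-138-2-3p and -5.37 to 10.2 for miR-218-5p, and the 3p share of miR-138 from -0.179 to 2.13. With exact reads only, the leading-seed difference was -0.426 for miR-138-1-3p, 0.113 for miR-138-2-3p and -0.0221 for miR-218-5p, which was -0.00127 with sequences of at least 1 CPM. The added limma ratio fit gave 0.46 for miR-137-3p.

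The labels do not say whether replicate numbers mark a shared mouse or day, and deviations of same-numbered libraries correlated at 0.18 over 456 miRNAs. With the replicate block 0 strands and 25 of their sequences passed an unadjusted p of 0.05, and miR-138-5p stayed at -0.44 (limma, adjusted p = 0.297). With 2 libraries per age, permutation tests of shares could not pass the threshold.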
